A study of Mus musculus with 29 samples.

Results

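The nuclear genes for the subunits of oxidative phosphorylation were followed in mouse splenic CD4 T cells, complex by complex. Genes were taken by symbol: those starting with Nduf and a, b, c, s or v before a digit (complex I), Sdha to Sdhd (complex II), Uqcr (complex III), Cox4 to Cox8 (complex IV) and Atp5 (complex V), without copies whose symbol ended in -ps and digits. A gene was kept if it reached a CPM of 1 (reads scaled to a library total of 1000000) in at least 3 of the 9 libraries of the cell-type experiment. Of 54532 rows, 92 matched by symbol and 80 were kept: 38 of complex I, 4 of complex II, 8 of complex III, 13 of complex IV and 17 of complex V. The 12 others reached that level in too few libraries. Among these were Cox6a2, in 2 libraries, and Cox4i2, in 1, the members closest to the limit from below. Cox7a1, Cox6b2 and Atp5g2, each in 7 libraries, were the closest from above. Of the 80 members, 78 were annotated as protein coding. The exceptions were Ndufb4c, a processed pseudogene, and Ndufb1-ps, which RefSeq lists as Ndufb1 and the table of the guide experiment as protein coding.

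Oxidative phosphorylation makes ATP in the inner mitochondrial membrane. Complex I takes electrons from NADH and complex II takes them from succinate, as a step of the tricarboxylic acid (TCA) cycle. Ubiquinone carries them to complex III, cytochrome c carries them on to complex IV, and oxygen receives them there. Complexes I, III and IV pump protons, and complex V, the ATP synthase, lets them flow back to make ATP. Complexes I, III, IV and V also hold subunits encoded by the mitochondrial genome, and complex II is encoded by nuclear genes alone. Naive T cells are small resting cells, and activation is known for growth and for an increase in mitochondrial content. Treg cells are known for a strong use of mitochondrial respiration.

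The libraries came from C57BL/6 mice and hold tags near the 3′ ends of polyadenylated RNA. The naive group was splenic naive CD4 T cells, for which the labels name no culture. Both cultures began from such cells and lasted 5 days: Th0 in 15 ng/ml of IL-2, and Treg in the same dose plus 10 ng/ml of human TGF-beta (hTGFb), with 3 libraries a group. A guide experiment held only Treg cultures of that recipe, 2 libraries for each of 4 groups. In the control group the labels name no guide RNA, and they do not say whether it received one. The others carry the labels sgSmad2, sgSmad3 and sgSmad2/3, for guides to the genes of Smad2, of Smad3 and of both, which carry the TGF-beta signal to the nucleus. Both cultures differ from naive cells by activation, culture and time at once, and these cannot be told apart. The labels do not say whether the libraries of a group came from separate mice or cultures, so p-values measure the spread between libraries, which may be technical.

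Libraries held 797612 to 1551478 reads in the cell-type experiment. For the guide experiment 1294583 to 1602297 reads were estimated, in a way described with the processing. The 6 T cell markers were present in every group, and summed to 2545 to 2620 CPM in naive, 1732 to 1797 in Th0 and 1616 to 1750 in Treg libraries. The 4 Treg markers (Foxp3, Il2ra, Ikzf2 and Ctla4) summed to 451 to 494 CPM in naive, 1341 to 1447 in Th0 and 1502 to 1699 in Treg libraries. By limma, 1 of the 4 was higher and 0 lower in Treg against Th0, and 2 were higher and 1 lower in Treg against naive. In Th0 against naive, 1 was higher and 3 were lower (median log2 change -1.74), so the larger sum in Th0 does not describe most of these markers. Foxp3, the lineage factor of Treg cells, had mean levels of 87.8 CPM in the naive group, 10.4 in Th0 and 179 in Treg. Red cell markers summed to 496 to 1172 CPM in naive libraries and to at most 5.55 in cultures, where Alas2, Hba-a2 and Hbb-bt were at 0. B cell markers summed to 358 to 656 CPM in naive and 102 to 114 in cultured libraries, with Cd79a and Ighd at 0 in Th0 and Igkc at 0 in Treg. Myeloid markers summed to 35.1 to 99.1 CPM in naive and at most 5.30 in cultured libraries, with Csf1r, Lyz2, S100a8 and S100a9 at 0 in cultures. Markers of CD8 T and NK cells summed to 46.8 to 63.9 CPM in naive, 20.8 to 50.9 in Th0 and 36.2 to 70.0 in Treg libraries. The share of Gm42418, which overlaps a ribosomal RNA repeat, was 10.3% to 11.4% in naive libraries, 6.59% to 7.88% in Th0 libraries and 7.11% to 8.78% in Treg libraries. Red cell, B cell and myeloid markers and Gm42418 moved with the step from naive to cultured cells, while the ranges of the CD8 T and NK markers overlapped. The part of the other cell types in the results below was not tested. In these bulk libraries, fewer cells of a type and less RNA per cell cannot be told apart.

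Most subunit genes of complexes I, III, IV and V rose in both cultures relative to naive cells. Together the 80 members took 0.628% to 0.698% of the CPM of naive libraries, 1.23% to 1.32% of Th0 and 1.21% to 1.28% of Treg libraries. In limma fits across 14165 genes, with adjusted p under 0.05 as the threshold, 66 of 80 members rose and 1 fell from naive to Treg. Of all genes tested, 23.3% rose and 16.5% fell in that comparison, 39.9% in all. From naive to Th0, 67 members rose and 1 fell, beside 24.3% and 17.6% of all genes, 41.9% in all. All 3 Treg libraries lay above all 3 naive ones for 68 members and below for 1, against 27% and 21.1% of all genes. For Th0 these were 66 members and 1, against 26.7% and 21.8%. The median log2 change of (CPM + 1) over the members was 0.90 in Treg and 0.93 in Th0, against 0.08 in both comparisons over all genes. Both comparisons use the same naive libraries, so their agreement is not independent. Rescaled without Gm42418, 65 and 66 members rose, and the medians were 0.85 and 0.87.

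**Figure D1:**
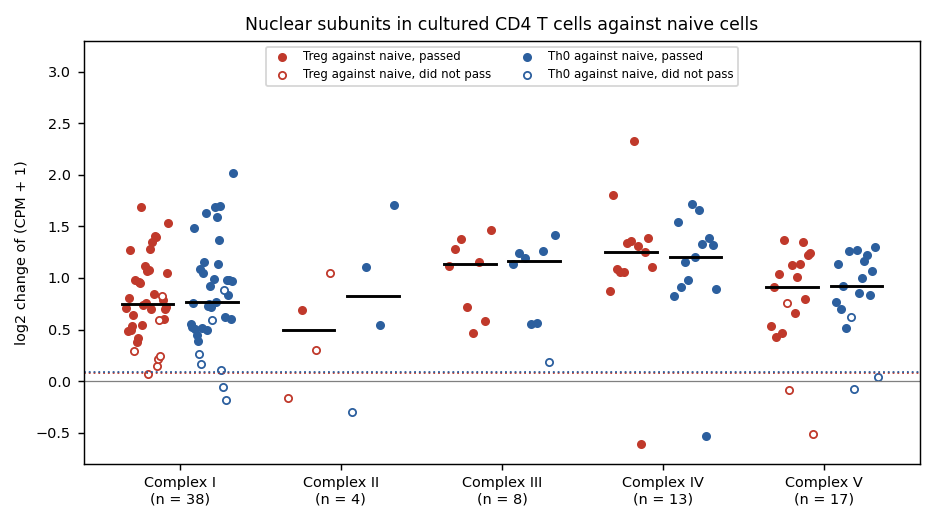
Log2 change of (CPM + 1) of each member from naive to Treg (red) and to Th0 (blue) cells, by complex; filled points passed the limma test, open points did not, black bars are medians and dotted lines the medians of all genes. The medians lie at 0.75 and 0.77 for complex I, 0.50 and 0.83 for II, 1.13 and 1.17 for III, 1.25 and 1.21 for IV and 0.91 and 0.92 for V, and Cox7a2l is the filled point below 0 in complex IV.

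By median log2 change, complex IV (1.25 in Treg, 1.21 in Th0) and complex III (1.13 and 1.17) stood above complex V (0.91 and 0.92) and complex I (0.75 and 0.77). Complex II had medians of 0.50 and 0.83. Over members at 20 CPM or more, the medians of complexes III and IV were 1.13 and 1.11 in Treg and 1.17 and 1.16 in Th0, so the order of these complexes depends on the members with few reads. Summed over its members, complex IV had 1383 ± 74.5 CPM in naive (SD, n = 3), 2936 ± 102 in Th0 and 3085 ± 105 in Treg cells. Complex I had 2199 ± 95.7, 4060 ± 137 and 3875 ± 133 CPM in the same order. Complex II had 313 ± 23.3, 456 ± 34.7 and 388 ± 31.3 CPM. In each complex the sums of all 6 cultured libraries lay above those of all 3 naive libraries. Differences between complexes were not tested, since subunits of a complex are not replicates.

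**Figure D2:**
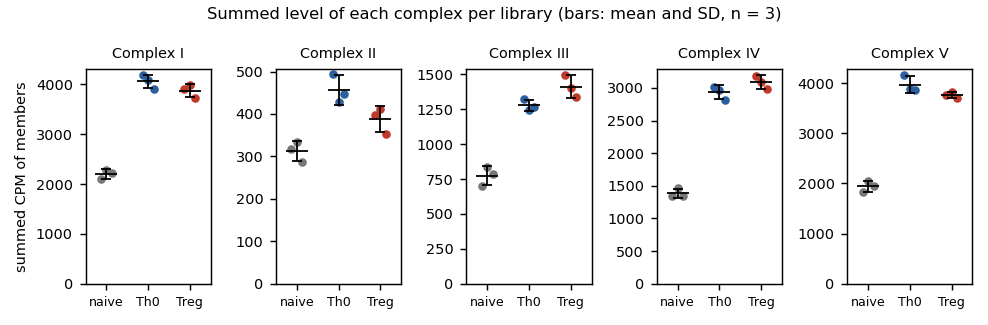
Summed CPM of the members of each complex in the 3 naive, 3 Th0 and 3 Treg libraries (points), with mean and SD. No naive library reaches a cultured library in any complex, and the gap is narrowest in complex II, where the highest naive library had 333 CPM and the lowest Treg library 353.

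In complex I, 31 of 38 members rose in each culture. Of 28 accessory subunits, which surround the catalytic core, 26 rose in Treg and 26 in Th0, with median log2 changes of 0.81 and 0.77. Of the 7 nuclear core subunits, which hold the flavin and the iron-sulfur clusters, 4 rose in each culture, with medians of 0.60 and 0.84. The core members that rose were Ndufv1, the NADH-binding subunit (0.71 in Treg and 0.60 in Th0), Ndufv2 (1.05 and 0.97), Ndufs7 (0.60 and 0.84) and Ndufs8 (0.70 and 0.98). Ndufs7 in Treg was near the threshold (limma adjusted p = 0.042), and its call was lost without naive replicate 2 (0.20), naive replicate 3 (0.055) or Treg replicate 1 (0.24). The Ndufs7 call was also lost at a pseudocount of 0.1 (0.062), without the intensity trend (0.11), with quantile (0.22) or TMM scaling (0.081), without Gm42418 (0.061) and under edgeR (0.068).

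Ndufs1, the largest subunit of the core, did not pass in either culture. It had 63.9, 70.6 and 83.0 CPM in naive, 85.8, 77.7 and 71.0 in Th0, and 79.7, 88.9 and 72.5 in Treg libraries, and the groups overlap. Its log2 change was 0.15 in Treg (limma adjusted p = 0.46) and 0.11 in Th0 (0.59). The 95% interval for Treg reached 0.46, so a rise up to this size could go undetected. Ndufs3 had at most 14.4 CPM in any library, and its change was measured too loosely to be read (0.60, SE 0.44, in Treg).

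Ndufv3, an accessory subunit beside the NADH-binding module (chromosome 17, 31520115 to 31531326, GRCm38.p6), changed most in complex I in Th0. It had 76.5, 73.1 and 78.3 CPM in naive, 310, 312 and 311 in Th0, and 234, 235 and 200 in Treg libraries. The 3 groups did not overlap, with Th0 highest and naive lowest. Its rise in Th0 was 4.06-fold, or 2.02 on the log2 scale (SE 0.10, limma adjusted p = 9e-12). In Treg it was 2.90-fold, or 1.54 (SE 0.10, limma adjusted p = 5.1e-10). Within a library, the tags of Ndufv3 per tag of Ndufv1 went from 0.984 to 1.18 in naive to 2.67 to 3.19 in Th0 and 1.89 to 2.02 in Treg libraries.

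The next largest rises of complex I were in further accessory subunits and Ndufb1-ps. Ndufc2 had 57.7, 55.8 and 66.6 CPM in naive, 198, 205 and 185 in Th0, and 164, 164 and 150 in Treg libraries, and rose by 1.69 in Th0 and 1.39 in Treg on the log2 scale. Ndufc1 rose by 1.41 in Treg and 1.36 in Th0, and Ndufb6 by 1.28 and 1.69. Ndufb8 rose by 1.35 in Treg and 1.59 in Th0, and Ndufa12 by 1.27 and 1.48. Ndufb1-ps rose by 1.69 and 1.63, from 41.4, 57.0 and 32.7 CPM in naive to 113 CPM or more in each cultured library. Ndufa4 carries a complex I name but is known as a subunit of complex IV. It did not pass, at 31.3, 54.5 and 44.4 CPM in naive, 54.0, 46.6 and 52.7 in Th0, and 50.6, 43.8 and 63.7 in Treg libraries.

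The 4 genes of complex II did not move together. Sdha, the flavoprotein that oxidises succinate, had 160, 172 and 122 CPM in naive, 153, 108 and 109 in Th0, and 141, 135 and 125 in Treg libraries. Its groups overlap, and its log2 change was -0.16 in Treg (limma adjusted p = 0.42) and -0.30 in Th0 (0.12). Under quantile scaling, TMM scaling and edgeR it did fall in Th0 (-0.43, -0.40 and -0.39, adjusted p = 0.044, 0.034 and 0.016), and also without naive replicate 3 (0.034) or Th0 replicate 1 (0.022).

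Sdhb, the iron-sulfur subunit that passes the electrons on (chromosome 4, 140961271 to 140979198), rose in both cultures. It had 97.8, 109 and 109 CPM in naive, 234, 230 and 218 in Th0, and 165, 191 and 158 in Treg libraries, 3 groups that did not overlap. The rise was 1.11 in Th0 (SE 0.11, limma adjusted p = 1.1e-07) and 0.69 in Treg (SE 0.11, 4.2e-05). Tags of Sdhb per tag of Sdha lay at 0.609 to 0.894 in naive, 1.53 to 2.13 in Th0 and 1.17 to 1.42 in Treg libraries.

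The membrane anchors Sdhc and Sdhd, which hold the quinone site of complex II, passed in Th0 and did not pass in Treg. Whether their change differs between the cultures is answered by Treg against Th0, where neither passed (-0.25 and -0.66, limma adjusted p = 0.58 and 0.54). Sdhd varied widely within groups, with 10.0, 6.19 and 16.4 CPM in naive, 40.3, 18.9 and 57.6 in Th0, and 47.4, 16.1 and 13.7 in Treg libraries. It passed in Treg without Treg replicate 3 (1.37, adjusted p = 0.038), under edgeR (1.05, 0.020), with no filter on low values (0.042) and with the filter at 5 (0.036). The Sdhc call in Th0 (0.55, adjusted p = 0.017) was lost without naive replicate 3 (0.068) or Th0 replicate 2 (0.059), without the intensity trend (0.053) and with quantile scaling (0.13).

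All 8 members of complex III rose in Treg, and 7 of them in Th0. The largest changes were in the small subunits Uqcrq (1.47 in Treg and 1.42 in Th0), Uqcrb (1.38 and 1.2) and Uqcr11 (1.28 and 1.25), and in Uqcrfs1, the Rieske iron-sulfur protein (1.15 and 1.26). Uqcrq had 87.8, 83.0 and 106 CPM in naive, 239, 266 and 236 in Th0, and 281, 246 and 243 in Treg libraries, so every cultured library was above every naive one. The core proteins Uqcrc1 and Uqcrc2 rose by 0.72 and 0.46 in Treg and by 0.55 and 0.56 in Th0. Uqcrh, the hinge protein next to cytochrome c1 (chromosome 4, 116066965 to 116075070), was the exception in Th0. It had 271, 362 and 372 CPM in naive, 412, 344 and 379 in Th0, and 493, 497 and 502 in Treg libraries, so Th0 overlapped naive cells and Treg did not (0.58, SE 0.11, limma adjusted p = 0.00025).

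In complex IV, 12 of 13 members rose in both cultures and Cox7a2l fell in both. Cox5a, a subunit on the matrix side (chromosome 9, 57517328 to 57532427), had 100, 91.7 and 69.0 CPM in naive, 263, 235 and 260 in Th0, and 289, 324 and 298 in Treg libraries. It rose 3.5-fold in Treg (1.81, SE 0.12, limma adjusted p = 7.2e-10) and 2.91-fold in Th0 (1.54, SE 0.12, adjusted p = 6.3e-09). Cox7c rose by 1.39 and 1.32 and Cox6c by 1.36 and 1.21, in Treg and Th0. The common forms Cox4i1 (0.88 and 0.82), Cox6a1 (1.06 and 1.16) and Cox8a (1.11 and 0.89) rose as well.

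Forms of complex IV subunits known from other tissues were at the edge of detection. Cox7a1, the heart and muscle form, had 1 naive library with a read (1.24 CPM), 6.36, 3.33 and 1.22 CPM in Th0, and 6.46, 3.87 and 6.86 in Treg libraries. A level of 3 reads is 3.76 CPM in the shallowest naive library, so no fold is given. It passed in Treg (limma adjusted p = 0.0021) and Th0 (0.020), and in Th0 the call was lost without naive replicate 1 (0.071), naive replicate 3 (0.078), Th0 replicate 1 (0.11) or Th0 replicate 2 (0.052). Cox6b2, known from testis, was at most 4.90 CPM in any library, with 1.25, 0 and 0 CPM in naive ones. It is counted above among the members that rose in both cultures. Its call in Th0 (limma adjusted p = 0.010) was lost under edgeR (0.064). Cox4i2, Cox6a2 and Cox8b were below the level filter.

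Cox7a2 and Cox7a2l are paralogs that moved in opposite directions. Cox7a2 is a subunit of complex IV, and the protein of Cox7a2l is known for joining complexes III and IV into supercomplexes. Cox7a2l (chromosome 17, 83501917 to 83514333) had 90.3, 92.9 and 87.7 CPM in naive, 60.4, 55.5 and 72.3 in Th0, and 51.7, 58.7 and 67.6 in Treg libraries. It fell by 0.61 on the log2 scale in Treg (SE 0.15, limma adjusted p = 0.0034) and by 0.53 in Th0 (SE 0.15, 0.0089), with every cultured library below every naive one. Cox7a2 (chromosome 9, 79755241 to 79771422) rose from 157, 178 and 196 CPM in naive to 425, 474 and 437 in Th0 and 450, 452 and 418 in Treg libraries (1.33, limma adjusted p = 1.4e-09, and 1.31, 1.8e-09). Within a library, Cox7a2 tags per Cox7a2l tag went from 1.74 to 2.24 in naive to 6.05 to 8.54 in Th0 and 6.19 to 8.71 in Treg. Reads of near-identical sequence could be shared between the paralogs, and this was not tested.

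**Figure D3:**
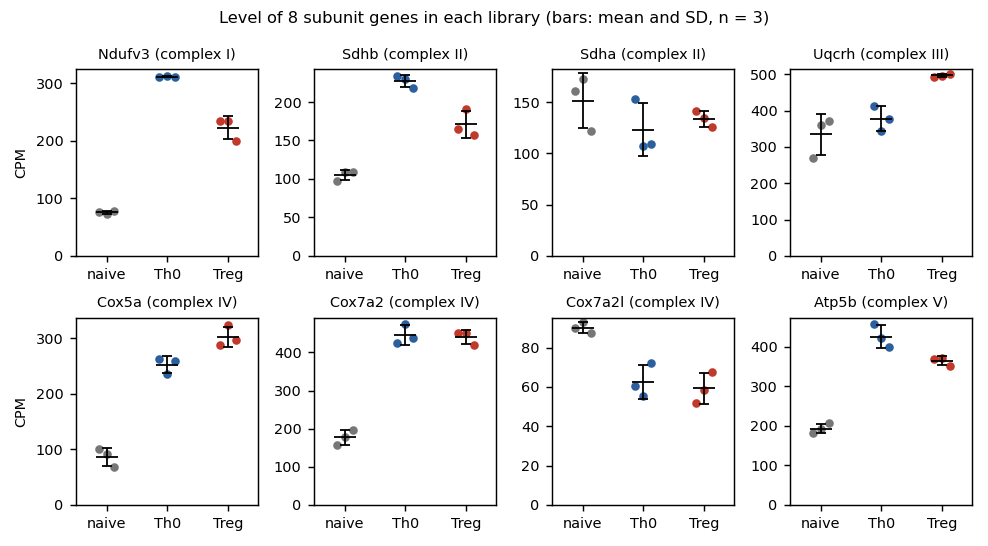
CPM of 8 members in each naive, Th0 and Treg library (points), with mean and SD (n = 3). Ndufv3 and Sdhb are highest in Th0, Uqcrh is highest in Treg, Sdha overlaps across groups, and Cox7a2l is lower in every cultured library than in every naive one while Cox7a2 is higher.

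In complex V, 14 of 17 members rose in both cultures. The peripheral stalk, which holds the catalytic head in place, rose in all 4 members, led by Atp5f1 (1.37 in Treg and 1.26 in Th0) and Atp5o (1.25 and 1.30). Atp5f1 had 97.8, 107 and 88.8 CPM in naive, 268, 220 and 222 in Th0, and 248, 263 and 250 in Treg libraries. All 5 members of the catalytic F1 head rose, by 0.43 to 1.04 in Treg and 0.51 to 1.14 in Th0. The membrane subunits Atp5k and Atp5mpl rose by 1.35 and 1.22 in Treg and by 1.22 and 1.07 in Th0.

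The genes Atp5g1, Atp5g2 and Atp5g3 encode the same mature subunit of the c ring, the rotor that protons turn. Atp5g3 had 280, 346 and 324 CPM in naive, 764, 753 and 773 in Th0, and 659, 699 and 715 in Treg libraries, and rose by 1.27 in Th0 and 1.13 in Treg (limma adjusted p = 5e-10 and 3.2e-09). Atp5g1 had 10.0, 8.67 and 4.68 CPM in naive, 24.4, 11.1 and 6.12 in Th0, and 12.9, 11 and 16.7 in Treg libraries. It did not pass (0.76 and 0.62, limma adjusted p = 0.19 and 0.28), nor did Atp5g2, at no more than 3.18 CPM in any library. Ndufs5, Atp5g1, Atp5g2, Atp5l and Ndufs3 were all below 30 CPM throughout. Members of these families have near-identical copies elsewhere in the genome, and reads shared with such copies could not be assigned with certainty. The part of shared reads in these values was not tested.

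Of the 71 members that averaged 20 CPM or more over the 9 libraries, 63 rose and 1 fell in Treg, and 64 rose and 1 fell in Th0. Those that did not pass in Treg included Ndufa4, Ndufs1, Ndufs4, Sdha, Sdhc and Sdhd. In Th0 they included Ndufa4, Ndufa6, Ndufs1, Sdha and Uqcrh. Of the 9 members under 20 CPM, 3 rose in each culture and 6 did not pass.

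Promoters are shown for some of the members named above, and this choice does not show how common the letters are. RefSeq windows of GRCm38.p6, from 250 bases before to 50 after a start site, were found for 67 of the 80 members, and the first window of each gene was read. The windows were searched on both strands for letters known from promoters of respiratory genes. CGCATGCG, bound by NRF1, was in 8 of 67 windows (11.9%), against 1.91% of the 27025 windows of all genes. CCGGAAG, bound by ETS factors such as GABP, was in 15 (22.4%, against 9.12%), and AAGATGGCG, bound by YY1, in 6 (8.96%, against 1.49%), 5 of them in complex I. GGGCGG, bound by SP1, was in 27 (40.3%, against 35.9%), the E-box CACGTG in 6 (8.96%, against 7.24%) and TCAAGGTCA, bound by ERR receptors, in 2 (2.99%, against 0.407%). Overlaps between matches of different motifs were not removed. Member windows had a median GC content of 58.3%, and all windows 52.7%, and the part of GC content in these shares was not tested. A match describes letters and shows no binding. NRF1 letters, ETS letters or both were in 19 of the 67 windows (28.4%), against 10.7% of all windows. In the windows below, NRF1 and ETS letters are in capitals. Atp5k (chr5:108434350-108434649 on the minus strand) and Cox6a1 (chr5:115348909-115349208 on the minus strand) held both, as did Atp5l and Uqcr11, which are not shown.
Atp5k: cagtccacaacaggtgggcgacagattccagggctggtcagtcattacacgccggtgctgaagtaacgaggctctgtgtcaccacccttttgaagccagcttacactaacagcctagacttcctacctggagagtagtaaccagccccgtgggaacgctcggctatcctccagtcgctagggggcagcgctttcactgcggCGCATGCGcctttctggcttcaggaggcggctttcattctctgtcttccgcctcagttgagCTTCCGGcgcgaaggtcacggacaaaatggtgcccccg
Cox6a1: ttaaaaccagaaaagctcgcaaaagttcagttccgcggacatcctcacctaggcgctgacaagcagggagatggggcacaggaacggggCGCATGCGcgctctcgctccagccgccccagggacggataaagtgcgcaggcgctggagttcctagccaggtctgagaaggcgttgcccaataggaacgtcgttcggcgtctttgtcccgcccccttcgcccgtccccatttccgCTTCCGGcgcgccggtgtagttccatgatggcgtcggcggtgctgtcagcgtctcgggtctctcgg
Sdhb (chr4:140961021-140961320 on the plus strand) and Uqcrh (chr4:116075021-116075320 on the minus strand), which differed in opposite directions between Treg and Th0 cells as described next, each held the ETS letters once.
Sdhb: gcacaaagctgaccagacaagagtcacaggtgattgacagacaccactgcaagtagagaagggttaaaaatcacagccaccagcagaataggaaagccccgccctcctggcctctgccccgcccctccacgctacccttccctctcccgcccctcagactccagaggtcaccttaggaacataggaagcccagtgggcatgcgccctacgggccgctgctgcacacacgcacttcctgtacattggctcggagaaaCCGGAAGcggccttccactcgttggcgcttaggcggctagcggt
Uqcrh: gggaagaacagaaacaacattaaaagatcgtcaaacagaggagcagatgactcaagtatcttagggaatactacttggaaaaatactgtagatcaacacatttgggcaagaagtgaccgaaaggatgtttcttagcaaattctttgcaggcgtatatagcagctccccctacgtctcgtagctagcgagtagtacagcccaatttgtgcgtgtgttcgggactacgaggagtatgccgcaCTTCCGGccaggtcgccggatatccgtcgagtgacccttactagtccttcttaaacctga
Ndufv3 (chr17:31519865-31520164 on the plus strand), with the largest rise of complex I in Th0, held neither of these. The same was found for Cox7a2 (chr9:79759804-79760103 on the minus strand), which rose, and Cox7a2l (chr17:83514284-83514583 on the minus strand), which fell.
Ndufv3: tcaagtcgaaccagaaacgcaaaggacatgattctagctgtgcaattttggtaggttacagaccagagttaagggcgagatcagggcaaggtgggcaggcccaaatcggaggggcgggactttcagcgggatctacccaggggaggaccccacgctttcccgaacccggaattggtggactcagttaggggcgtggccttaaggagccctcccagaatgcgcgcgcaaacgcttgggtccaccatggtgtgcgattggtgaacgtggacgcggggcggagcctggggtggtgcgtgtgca
Cox7a2: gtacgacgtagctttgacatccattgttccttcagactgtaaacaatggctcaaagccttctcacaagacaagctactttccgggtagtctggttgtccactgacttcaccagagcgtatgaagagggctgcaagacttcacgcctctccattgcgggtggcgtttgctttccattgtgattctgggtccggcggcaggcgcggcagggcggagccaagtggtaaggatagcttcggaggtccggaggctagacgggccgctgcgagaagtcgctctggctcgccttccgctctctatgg
Cox7a2l: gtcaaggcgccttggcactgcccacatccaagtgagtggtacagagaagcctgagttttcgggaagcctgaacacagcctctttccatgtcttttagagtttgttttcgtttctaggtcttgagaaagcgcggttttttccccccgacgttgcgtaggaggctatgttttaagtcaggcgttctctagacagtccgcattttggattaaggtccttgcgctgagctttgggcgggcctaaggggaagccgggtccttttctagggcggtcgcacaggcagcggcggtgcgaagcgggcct

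Treg and Th0 cells differed by little in these genes, and the members that passed went in both directions. Of 80 members, Uqcrh was higher in Treg, and Ndufv3 and Sdhb were lower. Of all genes tested, 2.99% were higher and 2.45% lower, 5.44% in all. The median log2 change of the members was -0.01, and -0.01 over all genes, and its sign varied with the scaling (0.02 with quantile scaling). Uqcrh was 1.32-fold higher in Treg (498 ± 4.70 against 378 ± 34.1 CPM, SD, n = 3, log2 change 0.40, SE 0.11, limma adjusted p = 0.037). Ndufv3 had a log2 change of -0.48 (SE 0.10, 223 ± 19.8 against 311 ± 0.69 CPM, limma adjusted p = 0.0063). Sdhb had a log2 change of -0.41 (SE 0.11, 171 ± 17.4 against 227 ± 8.32 CPM, limma adjusted p = 0.031).

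These 3 calls rest on small differences. Without the intensity trend in limma none passed (adjusted p = 0.34 for Uqcrh, 0.12 for Ndufv3 and 0.23 for Sdhb). At a pseudocount of 0.1 the Uqcrh call was lost as well (0.079). The Ndufv3 call held with each library left out in turn, with an adjusted p of at most 0.045. The Uqcrh call was lost without Th0 replicate 2 (0.19) or 3 (0.11) or Treg replicate 1 (0.11), 2 (0.12) or 3 (0.12). The Sdhb call was lost without Th0 replicate 1 (0.12), 2 (0.10) or 3 (0.058) or Treg replicate 1 (0.11) or 3 (0.14). Without Th0 replicate 3, 2 members were called lower, so a member outside these 3 passed beside Ndufv3. Under edgeR on the recovered reads the same 3 members passed (0.0012 for Uqcrh, 0.00058 for Ndufv3, 0.015 for Sdhb).

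Other members differed without passing the test. The 3 Treg libraries were all above the 3 Th0 libraries for 7 members and all below for 14, or 8.75% and 17.5% of them, against 10% and 11.2% of all genes. Of the 5 members of the catalytic head of complex V, 3 were among the 14, picked here after their values were seen. Atp5a1 and Atp5b, the subunits that form the catalytic sites, and Atp5c1, the central shaft, were lower in every Treg library (-0.23, -0.22 and -0.27, limma adjusted p = 0.23, 0.22 and 0.17). Atp5b had 369, 372 and 351 CPM in Treg and 458, 421 and 398 in Th0 libraries. Cox5a was higher in every Treg library (0.26, adjusted p = 0.31). For 70 of the 71 members at 20 CPM or more the 95% interval of the change lay within 1 log2 unit of 0, and the exception was Sdhd.

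**Figure D4:**
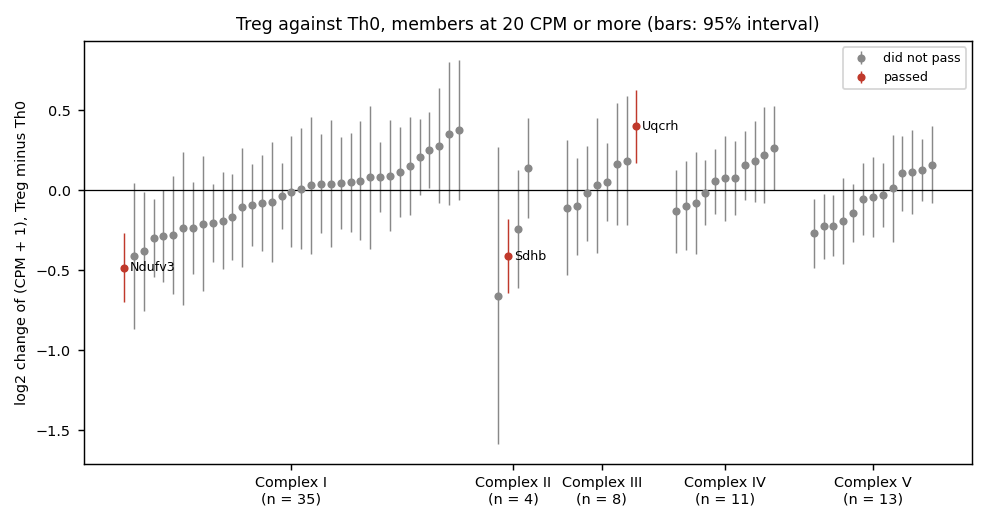
Log2 change of (CPM + 1) from Th0 to Treg cells with its 95% interval for the 71 members at 20 CPM or more, ordered within each complex. Red points passed the limma test: Ndufv3 (-0.48), Sdhb (-0.41) and Uqcrh (0.40), and most intervals of the others include 0.

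No subunit gene passed the test in Treg cultures with Smad guides. The comparison asks whether guides to Smad2, Smad3 or both change these genes under TGF-beta. Values here are CPM that the authors rounded to whole numbers. Smad2 had 37 and 29 in control, 12 and 24 in sgSmad2, 25 and 30 in sgSmad3, and 13 and 18 in sgSmad2/3 libraries. Smad3 had 30 and 34 in control, 44 and 56 in sgSmad2, 26 and 25 in sgSmad3, and 41 and 37 in sgSmad2/3 libraries. Smad3 was thus above both controls in the libraries labelled sgSmad2/3. A cut need not lower the tag count near the 3′ end, and where the guides cut is not given in the sources used here, so these levels do not check the labels.

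Of 80 members, 0 passed in each of the 3 comparisons (limma, adjusted p under 0.05), as did 0 of the 18347 genes tested, or 0%. At an unadjusted p under 0.05 there were 1 member in sgSmad2, 6 in sgSmad3 and 3 in sgSmad2/3, beside 1006, 1842 and 1795 of the 18347 genes. The share of the 80 members was thus below that of all genes in each comparison. With genes kept at 5 or more, 1, 10 and 56 of all genes passed, and again 0 members. The members' median log2 change was 0.06, -0.00083 and 0.08 against controls that the 3 comparisons share. Summed over all 80, the members had 12663 and 11964 in control, 13009 and 12946 in sgSmad2, 12055 and 12851 in sgSmad3, and 12809 and 12865 in sgSmad2/3 libraries. Both sgSmad2 sums and both sgSmad2/3 sums lay above the controls, and the sgSmad3 sums overlapped with them. The libraries of a group did not overlap with controls for 14 members that were higher and 3 lower in sgSmad2, against 10.3% and 8.7% of all genes. For sgSmad3 these were 21 and 13, against 15.3% and 12.9%, and for sgSmad2/3 25 and 7, against 16.1% and 13.7%. Red cell markers summed to 13 to 19 in control, 24 to 25 in sgSmad2, 32 to 87 in sgSmad3 and 70 to 144 in sgSmad2/3 libraries. Myeloid markers summed to 3 to 4, 6 to 11, 10 to 55 and 20 to 73, and B cell markers to 95 to 97, 74 to 82, 77 to 106 and 63 to 94, in the same order. Their part in these values was not tested.

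The members that differed between Treg and Th0 gave no call with the guides. Uqcrh had 401 and 472 in control, 366 and 464 in sgSmad2, 504 and 453 in sgSmad3, and 494 and 434 in sgSmad2/3 libraries. Ndufv3 had 241 and 229 in control, 218 and 224 in sgSmad2, 220 and 222 in sgSmad3, and 247 and 247 in sgSmad2/3 libraries. Sdhb had 167 and 161 in control, 191 and 153 in sgSmad2, 186 and 201 in sgSmad3, and 178 and 195 in sgSmad2/3 libraries. Ndufv3 was below both controls with each single guide and above both with the pair (-0.09, -0.09 and 0.07 on the log2 scale). The 95% interval for sgSmad2/3 was -0.11 to 0.25 for Ndufv3, -0.30 to 0.48 for Uqcrh and -0.14 to 0.50 for Sdhb.

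The members with an unadjusted p under 0.05 in a guide comparison, picked here after their values were seen, went in both directions. Ndufa10, an accessory subunit of complex I, had 189 and 210 in control and 159 and 154 in sgSmad3 libraries (-0.35, limma adjusted p = 0.35). Ndufa6, another accessory subunit, had 213 and 184 in control, 244 and 169 in sgSmad2, 144 and 125 in sgSmad3, and 128 and 136 in sgSmad2/3 libraries (-0.56, adjusted p = 0.44, and -0.58, 0.42, for the last 2 groups). Uqcrc2, a core protein of complex III, had 150 and 150 in control and 117 and 118 in sgSmad2/3 libraries (-0.35, adjusted p = 0.37). Sdhd, an anchor of complex II, had 60 and 75 in control and 46 and 46 in sgSmad3 libraries (-0.53, adjusted p = 0.48). Ndufa9, also of complex I, had 71 and 59 in control and 48 and 49 in sgSmad3 libraries (-0.41, adjusted p = 0.43). Other members were higher than both controls. Ndufc1, an accessory subunit of complex I and the 1 such member in sgSmad2, had 122 and 110 in control and 162 and 136 in sgSmad2 libraries (0.35, adjusted p = 0.81). Ndufb8, also of complex I, had 143 and 156 in control and 172 and 173 in sgSmad2/3 libraries (0.21, adjusted p = 0.49). Atp5g1 of the c ring, at 6 and 8 in control and 12 and 15 in sgSmad3 libraries, and Cox7a1, at 3 and 2 and 5 and 6, were higher at low levels (0.86 and 0.90, adjusted p = 0.44 and 0.45). None of these differences passed the adjusted test. With 2 libraries a group the median half-width of the 95% interval was 0.42 over the 72 members at 20 or more, and the interval lay within 1 log2 unit of 0 for 68 of them in sgSmad2, 59 in sgSmad3 and 64 in sgSmad2/3.

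**Figure D5:**
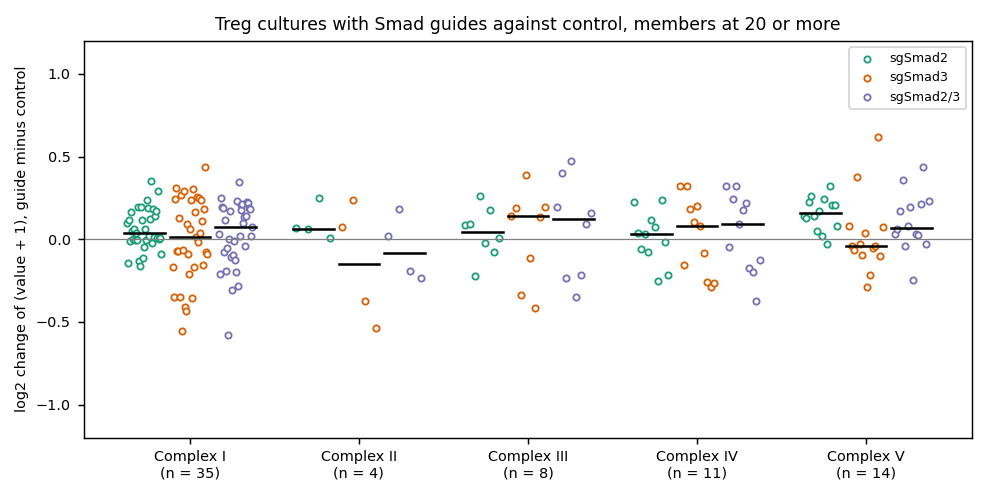
Log2 change of (value + 1) of the 72 members at 20 or more on average, from control Treg cultures to cultures with guides against Smad2, Smad3 or both, by complex, with medians as black bars. No member passed the limma test, and the changes lie between -0.58 (Ndufa6, sgSmad2/3) and 0.62 (Atp5l, sgSmad3).

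Genes that act beside the nuclear subunits were counted from further lists, first those that the symbols had left out. Of 19 measured genes for cytochrome c, quinone synthesis and other subunits, 7 rose and 1 fell in each culture, beside 23.3% and 16.5% of all genes in Treg and 24.3% and 17.6% in Th0. The list's medians were 0.38 and 0.32, and with quantile or TMM scaling 7 rose and 2 fell. Atpif1, which inhibits ATP hydrolysis by complex V, had 43.9, 28.5 and 35.1 CPM in naive, 228, 233 and 249 in Th0, and 205, 180 and 213 in Treg libraries (2.71 in Th0 and 2.46 in Treg, limma adjusted p = 1.1e-11 and 4.5e-11). Cycs, cytochrome c itself, rose by 1.16 in Treg and 1.07 in Th0, and Cyc1, cytochrome c1 of complex III, by 0.86 and 0.82. Coq10b, a quinone-binding protein, fell from 69.0, 65.7 and 80.7 CPM in naive to 4.24, 3.33 and 2.45 in Th0 and 10.8, 5.16 and 6.86 in Treg libraries (-4.08 and -3.13, adjusted p = 1e-08 and 4.4e-07).

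Assembly factors, which build the complexes and are not part of them, were counted next. Of 48 measured, 5 rose and 2 fell in Treg, and 10 rose and 2 fell in Th0, with medians of 0.26 and 0.37. The same shares of all genes apply, 23.3% higher in Treg and 24.3% in Th0, and the counts of higher assembly factors were not above them. With quantile scaling 2 rose and 2 fell in Treg (median 0.08), and 7 rose and 2 fell in Th0 (0.20). Cox17, which brings copper to complex IV, had 22.6, 14.9 and 17.5 CPM in naive, 61.4, 63.2 and 41.6 in Th0, and 61.4, 69.0 and 59.8 in Treg libraries. It rose by 1.75 in Treg and 1.54 in Th0, and Uqcc2, an assembly factor of complex III, by 1.15 and 1.6. Of the 13 listed genes of the mitochondrial genome, 7 were tested, and 4 of these rose in each culture, with medians of 0.34 and 0.48. The genes mt-Co2, mt-Co3, mt-Atp6, mt-Atp8 and mt-Nd4l were at 0 in every cell-type library. Only Treg replicate 3 held mt-Nd3, at 0.98 CPM. The 7 thus hold no gene of complex V and do not stand for the whole mitochondrial genome. With quantile scaling 5 rose in Treg, and 4 rose and 1 fell in Th0. Among them mt-Nd2 rose by 0.83 in Treg and 0.68 in Th0, and mt-Nd1 by 0.69 and 0.64, both complex I subunits. Another, mt-Nd6 (1.34 and 1.59), lies opposite other mitochondrial genes, and the strand setting of the counts is not given. No gene of these 3 lists passed in Treg against Th0 or with a guide.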

How the data were processed

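Libraries were made from TRIzol total RNA with a QuantSeq 3′ FWD kit, per the labels' protocols. STAR 2.7.9a and Subread 2.0.1, with Bowtie2, deepTools and the build mm10, are listed without a role per the submitters' processing notes. No source used here gives the annotation or strand setting. Both deposited gene tables bear the name TPM. The deposited values of the cell-type table were CPM: columns summed to 1000000, and 100% of values were whole reads (to within 0.01) once divided by what 1 read adds. The deposited values of the guide table were a score, CPM that the authors rounded to whole numbers. The design had assumed that both held unrounded CPM. The guide table ends in a line without a gene name, which was left out of the genes (7.7e-05% of a column or less). Its value in each column was taken as what 1 read adds, and the read numbers of the guide libraries were estimated from it. That reading of the line was not tested. IDs with a reference name numbered 54409 of 54532 and 55154 of 55421. All 80 members were matched by ID in the guide table, 1 under another symbol.

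Genes at 1 or more in at least 3 (cell types) or 2 (guides) libraries were tested, 14165 and 18347. Values were tested as log2(value + 1) by limma 3.58.1 (R 4.3.3), with its intensity trend and 1 fit per table over all its groups, p-values two-sided and adjusted by Benjamini and Hochberg over all genes tested, with a threshold of 0.05. Changes are on this scale, which understates those of genes with few reads. edgeR 4.0.16 on the recovered read counts was an alternative. Cores of the NRF1 and YY1 letters were searched after longer forms had been searched in the same windows. The fits were tested on simulated data. On data simulated for the guide table, the filter used here gave many false calls and the filter at 5 gave few. Their numbers are not reported here. The fit of the real guide values at the lower filter called 0 of 18347 genes, so the simulated data differed from the real ones in this. Calls in that table at the lower filter came only from alternative fits, and are not read as changes. At 797612 to 1551478 reads, 3 reads are worth 3.76 CPM in the shallowest library, and such floors cover counting error only, since tags carry no molecular identifiers. The 2 tables were not compared with each other. The 4 Acsbg1 libraries and 8 ATAC libraries were not analysed here.

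The members, the other lists, the tests and the rule for named genes were chosen with earlier results of these data known. The rule took up to 4 members per complex, direction and contrast with the largest change past the threshold, all complex II members, nuclear core subunits of complex I, isoform pairs, c ring genes and, from other lists, up to 3 per direction. Genes named outside it are described by role or as picked after their values were seen. Alternatives were other pseudocounts, filters, scalings, variance models, the replicate block, edgeR and each library left out. The rescaling without Gm42418 and the rescaling of the other lists were chosen after seeing the data. Values of some genes that the rule takes are not reported here.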

Additional observations from a re-analysis of the deposited data

How the results depend on the processing

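The number of members called was 67 from naive to Treg and 68 from naive to Th0, and stayed within 60 to 68 and 61 to 68 over the alternatives without a library left out. With each library left out in turn it was 61 to 66 and 62 to 67. No member that the rule names reversed. Quantile scaling moved the median change of all genes from 0.08 to -0.04 (Treg) and from 0.08 to -0.03 (Th0). The members' medians were then 0.78 and 0.76, with 59 higher and 1 lower in Treg and 59 higher and 2 lower in Th0. All genes then split into 2735 higher and 2833 lower in Treg, against 3305 and 2343, and 2872 and 3031 in Th0, against 3442 and 2493. With TMM scaling 62 members were higher and 1 lower in Treg, and 64 and 2 in Th0. From Th0 to Treg, 3 members were called, 0 without the intensity trend, 2 at a pseudocount of 0.1 (Uqcrh lost), and 1 to 2 with a library left out (1 without Th0 replicate 2, Treg replicate 1 or Treg replicate 3). All genes called there numbered 770, 453 without the trend and 493 without Treg replicate 2. The cause was not tested. No member was called with a guide under any alternative run, 0 to 0 with a library left out. All genes called with sgSmad2, sgSmad3 and sgSmad2/3 numbered 185, 178 and 178 at a pseudocount of 0.1, 175, 158 and 164 without the trend, and 1, 10 and 56 with the filter at 5, against 0 in the fit reported.

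Replicate numbers did not pair libraries of the cell-type table, where deviations of same-numbered libraries correlated at -0.038 to 0.053 over genes. In the guide table the correlations were -0.0023 to 0.098, except 0.47 for control and sgSmad2. Same-numbered libraries of control and sgSmad2 thus moved together. The sgSmad2 fit reported, with its intervals, did not use this pairing. With a replicate block 3, 68 and 68 members were called for Treg against Th0, Treg against naive and Th0 against naive, and 0 with each guide. Sdhd then passed in Treg against naive (0.034). With 2 or 3 libraries a group and 797612 to 1602297 recovered or estimated reads each, members under 20 CPM cannot be read from a missing call.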

Other observations

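Lists of other mitochondrial genes gave the following counts from naive to cultured cells, beside 23.3% of all genes higher and 16.5% lower in Treg and 24.3% higher and 17.6% lower in Th0. Of 77 measured genes of the mitochondrial ribosome, which translates the subunits that the mitochondrial genome encodes, 41 rose and 1 fell in Treg, and 52 rose and 1 fell in Th0, with median log2 changes of 0.73 and 0.87. Mrpl45 rose by 1.61 in Treg and 1.87 in Th0 (limma adjusted p = 5.1e-06 and 7.1e-07). With quantile scaling 32 rose and 2 fell in Treg, and 39 rose and 1 fell in Th0.

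Of 19 measured genes of the TCA cycle, 13 rose and 1 fell in Treg, and 12 rose and 1 fell in Th0, with medians of 0.54 and 0.66. Me2, a malic enzyme, had 57.7, 52.0 and 65.5 CPM in naive, 153, 162 and 108 in Th0, and 167, 158 and 170 in Treg libraries. Fh1, fumarase, rose by 1.29 in Treg and 1.51 in Th0. With quantile scaling 7 TCA genes rose in Treg and 11 in Th0. Of 20 measured regulators of mitochondrial biogenesis, 3 rose and 2 fell in Treg, and 3 rose and 4 fell in Th0, so the counts of higher genes were not above the shares of all genes. Their median was 0.05 in Treg, which turned to -0.09 with quantile and -0.03 with TMM scaling. In Th0 it was -0.13, with -0.30 and -0.23 under these scalings, where 2 rose and 6 fell. Myc, a transcription factor of cell growth, rose by 1.89 in Treg and 1.83 in Th0 (limma adjusted p = 9.9e-06 and 1.4e-05). Ppargc1b, a coactivator of respiratory genes, fell by 1.41 in Treg and by 1.33 in Th0, and Polg2, an accessory subunit of the mitochondrial DNA polymerase, fell by 2.41 and by 2.33. No gene of these 3 lists passed in Treg against Th0 or with a guide.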
